A study of Homo sapiens with 6 samples.

Results

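Notch signalling is a short pathway between neighbouring cells. A ligand of the Jagged or Delta-like families on one cell binds a NOTCH receptor on the next, the receptor is cleaved by ADAM proteases and then by gamma-secretase, and its intracellular domain joins the DNA-binding protein RBPJ to switch on target genes. Many of these targets encode HES and HEY proteins, basic helix-loop-helix repressors that recruit TLE co-repressors and hold back differentiation genes, and HES2 is one of the less studied of them.

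The genes described here are HES2 and 9 further genes of this pathway: the receptors NOTCH1, NOTCH2 and NOTCH3, the ligands JAG1 and JAG2, the DNA-binding factor RBPJ, and the repressors HES1, HES4 and HEY1. They were chosen by name with results of these same data in view, and all 10 were among the 17211 listed genes and passed the filter on low values, a normalized count of at least 1 in 3 or more libraries. Because the contrast between siYAP and siNT was used in choosing them, their differences are given as a description, with standard errors from the fit across all genes and without a test.

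RNA was sequenced from CAOV2, a human ovarian cancer line that the titles also call primary cells, as 3 libraries transfected with an siRNA product against YAP (siYAP) and 3 transfected with the AllStars non-targeting control (siNT). All cells received 100 pmol of siRNA with 6 µL of lipid reagent for 2 days and were collected at day 3, and no untransfected cells are among the samples. The 2 reagents are different products, and a difference between the groups due to YAP and one due to the reagents cannot be told apart. The titles number the libraries of each group as biological replicates 1 to 3 and do not say whether these were separate passages, days or transfections, so the spread behind each p-value is that among these libraries. Values are read counts divided by one size factor per library, called normalized counts, from 25478595 to 31790340 reads per library.

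YAP1, the targeted gene, stood at 5801 to 6221 normalized counts in siNT and 278 to 327 in siYAP. Of 26 marker genes of ovarian carcinoma and other cell types, 14 were measured, of which 3 rose, 7 fell and 4 were not called. Among epithelial markers the keratin gene KRT8 was abundant (35206 ± 1349 in siNT, SD, n = 3) and not called, KRT7 and KRT18 fell to 51.1% and 62.2% of siNT, and EPCAM rose to 167% of it. The ovarian carcinoma markers PAX8 (28.8 ± 13.9 in siNT, SD, n = 3) and MUC16 (11.9 ± 3.67) were scarce and not called. All 3 measured fibroblast markers were called: LUM rose from 3797 ± 362 to 9819 ± 320 (SD, n = 3), COL1A2 fell from 12.6 ± 2.69 to 1.25 ± 0.487, and COL1A1 fell to 86.8% of siNT. Of the scarce markers of other types, PDGFRB rose from 10.1 ± 4.70 to 19.7 ± 4.33 (SD, n = 3), and the myeloid genes CD68 and LYZ fell to 63.9% and 30.4% of siNT. RGS5, with PDGFRB in the smooth muscle and pericyte list, was at 5.47 ± 2.64 in siNT and 3.13 ± 1.01 in siYAP and was not called. The part of these differences in the results below was not tested. The endothelial markers PECAM1, CDH5, KDR, VWF and TEK and the leukocyte marker PTPRC were not analysed here. Of all 17200 genes tested, 56.8% were called at an adjusted p under 0.05 (limma, Benjamini-Hochberg), 28.6% higher and 28.1% lower in siYAP. In bulk RNA, fewer cells that express a gene and less RNA per cell cannot be told apart.

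Short stretches of sequence from HES2 and its relatives are printed first because HES2, HES1 and HES4, members of one family, differed so unequally between the groups. Whether the promoter matches below play a part in these differences was not tested. The RefSeq promoter table (GRCh38.p14) holds 300 bases around one start of 9 of the 10 genes, 250 before and 50 after, all but HEY1. It was searched on both strands for TGGGAA, the core bound by RBPJ, and for GGAATG, the core bound by the TEAD partners of YAP. TGGGAA was present in 24.0% of all 35116 promoters of this length in the table and GGAATG in 14.0%. HES1 held the RBPJ core 2 times, 8 bases apart and both in the same orientation, and HES4 held it once. The windows of HES2, NOTCH1, NOTCH2, NOTCH3, JAG1, JAG2 and RBPJ held no match to these letters, and none of the 9 held GGAATG. The HES2 window surrounds its RefSeq start. Its most upstream annotated start and all sequence outside the windows were not searched. Of the sites that HES and HEY proteins themselves bind, the N box CACNAG was present in 38.0% of all promoters and the class C box CACGCG in 11.4%. HES1 held the N box 4 times and the class C box 2 times, and HES2 held the N box once and no class C box. The matches are shown with the core in capitals, HES1 at chr3:194136059-194136088 on the plus strand and HES4 at chr1:1000156-1000185 on the minus strand.
HES1: tactgTGGGAAagaaagttTGGGAAgtttc
HES4: ctggggcgagtgTGGGAAagaatgcggagc

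The 3′ UTR of HES2 was searched for 3 heptamers that earlier work on these same libraries had picked for their association with lower fold changes, so a match is a description of the sequence and no independent evidence. The first was GAGAGGA. The second was GATAAAG. The last was TTCTTAA, which HES2 did not hold. The 3′ UTR of the principal GENCODE 29 transcript of HES2 is 3641 bases long and held GAGAGGA 2 times and GATAAAG once. NOTCH2, with a 3′ UTR of 3753 bases, held GATAAAG once. The 3′ UTRs of the other 8 genes held none of the 3. At least 1 of them was present in 37.0% of 11396 searched genes whose mean reached 50 normalized counts. The median log2 difference of those genes was -0.03, against -0.0 in the genes without. The median 3′ UTR had 2518 bases in the genes with a heptamer, against 690 bases in the genes without. The sites are printed with the heptamer in capitals, those of HES2 at chr1:6417009-6417037, chr1:6416891-6416919 and chr1:6415585-6415613 and that of NOTCH2 at chr1:119913577-119913605, all on the minus strand of GRCh38. Whether these sites play a part in the HES2 difference was not tested.
HES2 first: gagcagaggatGAGAGGActaccctgtaa
HES2 second: ggggaggtgtgGAGAGGAgggagggcagg
HES2 last: acgtgagtgagGATAAAGactgggctgcc
NOTCH2: agttaattgtaGATAAAGaatagttttct

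HES2 (ENSG00000069812, protein-coding, chr1:6412418-6424670, minus strand; all gene positions are GENCODE 29 on GRCh38, matched by identifier) was the gene of the set with the largest difference. Its normalized counts were 54.5, 69.5 and 54.4 in siNT replicates 1, 2 and 3 and 1.81, 8.88 and 1.90 in siYAP replicates 1, 2 and 3. Every siYAP library lay far below every siNT library, and siYAP replicate 2 was the highest of its group. The means were 59.4 ± 8.70 and 4.2 ± 4.06 (SD, n = 3), so that siYAP stood at 7.07% of siNT, and at 3.12% without siYAP replicate 2. The log2 fold change was -3.80 with a standard error of 0.386 on log2(value + 1), a scale that shrinks the differences of scarce genes, and it was -4.18 with a pseudocount of 0.1. Few reads lie behind these values. There were 162 reads in siNT and 13 in siYAP, of which 9 came from siYAP replicate 2 and 2 from each of the others. The ratio of these reads, corrected for the size factors, was 6.88%, with an exact 95% interval of 3.59% to 12.1% that covers counting error only.

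HES1 (ENSG00000114315, chr3:194136145-194138732, plus strand), the HES gene most often used as a readout of Notch activity, hardly differed. Its normalized counts were 1300.5, 1308 and 1279 in siNT and 1380.1, 1376 and 1372 in siYAP. The siYAP libraries were all slightly higher, at 106% of siNT (log2 0.09, standard error 0.0501), a difference that moved to 0.17 when libraries were scaled to equal totals. HES4 (ENSG00000188290, chr1:998962-1000172, minus strand), a human relative of HES1, had 406, 470.3 and 483 normalized counts in siNT and 391, 405 and 336 in siYAP. All siYAP libraries of HES4 were below all siNT libraries, but siYAP replicate 2 and siNT replicate 1 nearly met (log2 -0.27, standard error 0.0865).

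HEY1 (ENSG00000164683, chr8:79764010-79767863, minus strand), a HES relative known from blood vessel and heart development, was lower in siYAP. It had 430.4, 452 and 425 normalized counts in siNT and 305, 273 and 263 in siYAP. The groups were well apart, siYAP standing at 64.3% of siNT (log2 -0.64, standard error 0.0814). HES1, HES4, HEY1 and HES2 thus stood, in that order, at 106%, 83.2%, 64.3% and 7.07% of siNT.

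Among the ligands, JAG1 (ENSG00000101384, chr20:10637684-10673999, minus strand) was lower in siYAP. Its normalized counts were 6722, 6588 and 6912 in siNT and 4097, 4253 and 4244 in siYAP. The 2 groups were each tight and did not overlap, siYAP standing at 62.3% of siNT (log2 -0.68, standard error 0.0426). JAG2 (ENSG00000184916, chr14:105140981-105168824, minus strand) was far scarcer, at 57.6, 73.8 and 47.1 normalized counts in siNT and 47.1, 54.3 and 37.1 in siYAP. Its groups overlapped, and the log2 difference of -0.35 had a standard error of 0.195.

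Of the receptors, NOTCH1 (ENSG00000148400, chr9:136494433-136545786, minus strand) had 682, 851 and 804 normalized counts in siNT and 551, 535 and 488 in siYAP. All siYAP libraries were lower (67.4% of siNT; log2 -0.56, standard error 0.0775). NOTCH3 (ENSG00000074181, chr19:15159038-15200981, minus strand), best known from vascular smooth muscle and also studied in ovarian carcinoma, was scarce, with 86.9, 96.2 and 77.3 normalized counts in siNT and 59.8, 62.2 and 59.9 in siYAP. Again no siYAP library reached an siNT library (69.8% of siNT; log2 -0.51, standard error 0.148).

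NOTCH2 (ENSG00000134250, chr1:119911553-120069626, minus strand) had 4689, 4964 and 4737 normalized counts in siNT and 5075, 4920.3 and 5489.9 in siYAP. Its groups overlapped (log2 0.10, standard error 0.0474, and 0.19 with equal totals). NOTCH2 has partial copies in the genome, the NOTCH2NL genes, which were not analysed here and with which the counting may have split reads. RBPJ (ENSG00000168214, chr4:26163455-26435131, plus strand), through which all these receptors act, had 2931, 2560.0 and 2598 normalized counts in siNT and 2699.6, 2936 and 2909.5 in siYAP. The groups overlapped (log2 0.08, standard error 0.0542).

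**Figure D1:**
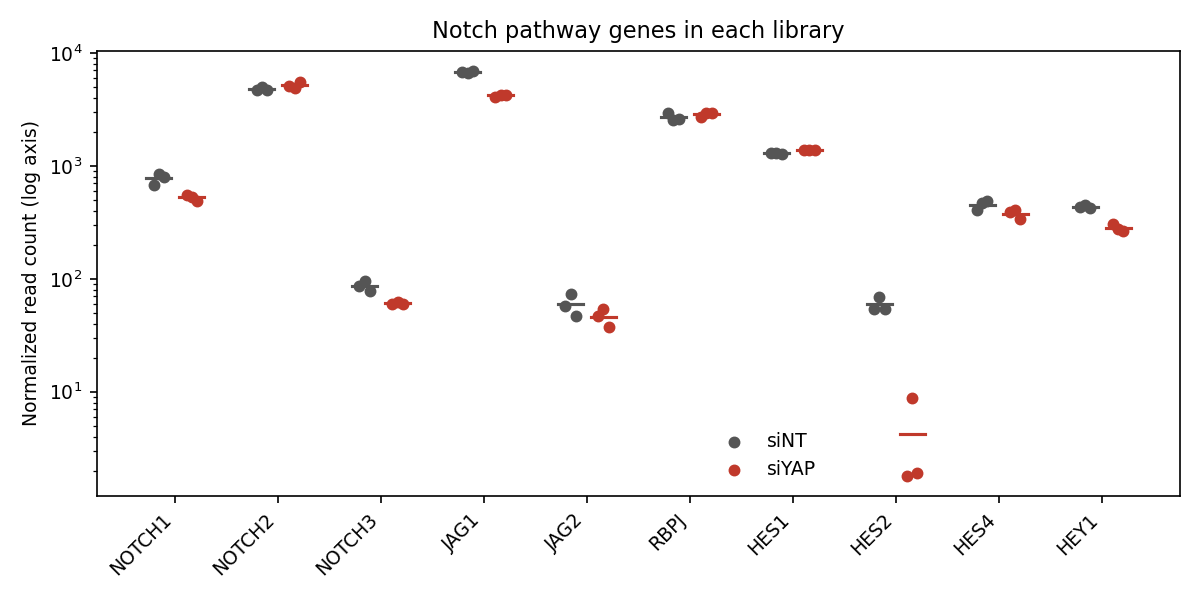
Normalized read count (log axis) of the 10 genes in each library, siNT in grey and siYAP in red, with 1 point per library and a bar at the mean of 3. HES2 drops from a mean of 59.4 to 4.2, JAG1, HEY1, NOTCH1, NOTCH3 and HES4 are lower without overlap, and NOTCH2, JAG2 and RBPJ overlap between groups.

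In 6 of the 10 genes all siYAP libraries lay below all siNT libraries, in 1 (HES1) all lay above, and 3 overlapped. Over all genes tested, 61.5% were separated in this way, 30.6% downward and 30.9% upward. In the fit across all genes the same 6 genes were called lower, none was called higher and 4 were not called, beside the 56.8% called in either direction. Nothing is read from these counts, since the members were chosen with this contrast known.

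Levels of different genes were compared per kilobase of annotated exon. In siNT, JAG1 led with 725 ± 17.5 normalized counts per kilobase (SD, n = 3), followed by HES1 (628 ± 7.50), HES4 (406 ± 36.9), RBPJ (291 ± 22.1) and NOTCH2 (285 ± 8.74). HEY1 (135 ± 4.41) and NOTCH1 (75.0 ± 8.41) came next, and HES2 (11 ± 1.61), JAG2 (9.30 ± 2.10) and NOTCH3 (9.24 ± 1.00) were last. RBPJ and NOTCH2 did not differ beyond their spread, nor did HES2 from JAG2 or JAG2 from NOTCH3. HES2 was thus a minor transcript already in the control cells. In siYAP, HES1 led JAG1 (667 ± 2.09 against 452 ± 9.42 per kilobase), and HES2 came last at 0.777 ± 0.750. With the longest transcript as the length, RBPJ stood before HES4 in siNT.

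The make-up of each family was then read as each gene's share of the family's summed count per kilobase. Of the 4 NOTCH receptors, NOTCH2 held 76.6 ± 1.40% in siNT and 83.9 ± 1.45% in siYAP, and NOTCH1 20.1 ± 1.46% and 13.8 ± 1.33% (SD, n = 3). Their summed level was nearly level, at 373 ± 17.1 and 366 ± 14.9 normalized counts per kilobase. The 5 canonical ligands together were lower, at 769.5 ± 15.5 and 505 ± 10.3 per kilobase. JAG1 held 94.2 ± 0.389% of that sum in siNT and 89.4 ± 0.964% in siYAP. Among 8 measured HES and HEY genes, HES1 held 34.9 ± 1.56% and 42.9 ± 1.39%. HES2 held 0.609 ± 0.0713% and 0.0493 ± 0.0467%, so that it was a small part of the family's sum in both groups.

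**Figure D2:**
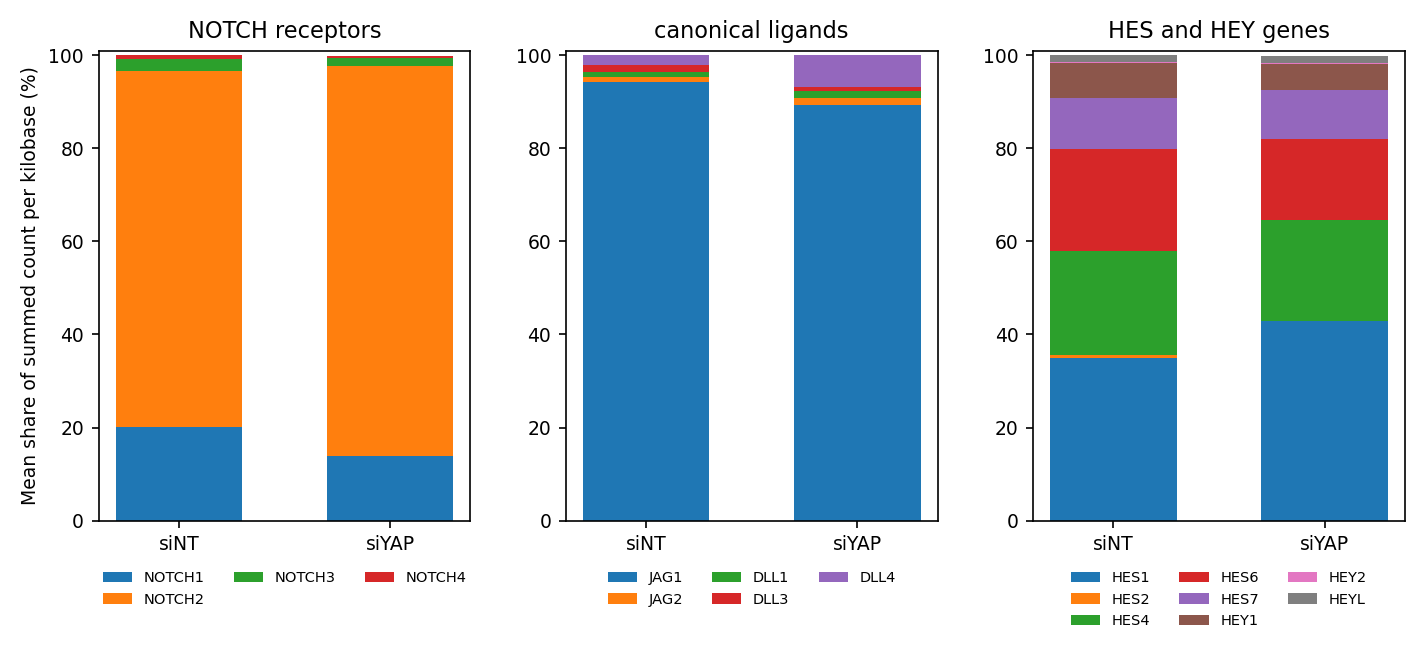
Mean share (percent) of each gene in the summed normalized count per kilobase of its family, in siNT and siYAP, over 3 libraries each and with receptors, canonical ligands and HES and HEY genes in separate panels. NOTCH2 and JAG1 hold most of their families in both groups, the DLL4 share is larger in siYAP (6.74% against 1.96%), and the HES2 band is barely visible in siNT.

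HES2 lies next to ESPN, which encodes espin, an actin-bundling protein of microvilli and stereocilia, and the neighbours differed in opposite directions. ESPN (ENSG00000187017, chr1:6424776-6461367, plus strand) had 44.0, 70.5 and 49.5 normalized counts in siNT and 201, 177 and 187 in siYAP. All siYAP libraries were above all siNT libraries, and ESPN rose 3.44-fold (log2 1.79, standard error 0.154, limma adjusted p = 1.54e-09). The 2 genes point away from each other, with 105 bases between them where HES2 starts at its most upstream annotated transcript, and 4856 bases where it starts as in RefSeq. ESPN has a pseudogene copy, ESPNP, that may share reads with it and was not called (63.1 ± 3.95 against 52.8 ± 2.70, SD, n = 3; limma adjusted p = 0.186).

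The other nearest listed genes moved less. On the far side of HES2, ACOT7, an acyl-CoA thioesterase gene 18026 bases away, was not called (log2 -0.06, limma adjusted p = 0.354). Further out, the orphan receptor gene GPR153 (log2 -0.34, limma adjusted p = 0.00158) and the non-coding ICMT-DT (log2 -0.84, limma adjusted p = 0.00105) fell, the latter overlapping ICMT on the other strand (log2 -0.73). Beyond ESPN, the death receptor gene TNFRSF25 (log2 -0.04, limma adjusted p = 0.691) and PLEKHG5 (log2 -0.09, limma adjusted p = 0.127) were not called. TNFRSF25 overlaps both ESPN and PLEKHG5, so reads may be shared among them.

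**Figure D3:**
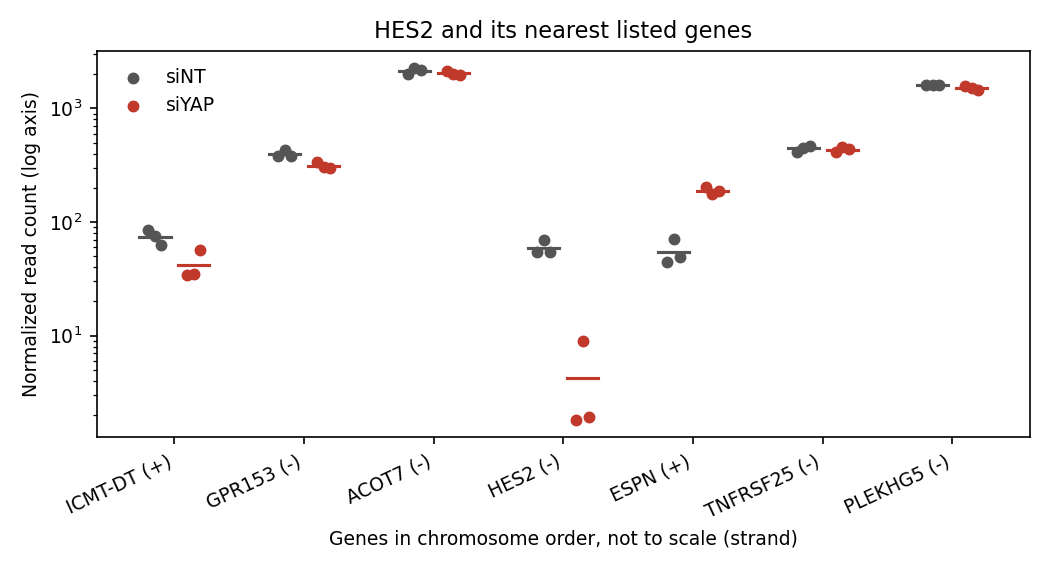
Normalized read count (log axis) of HES2 and its 3 nearest listed genes on each side, in chromosome order and not to scale, with 1 point per library and a bar at the mean of 3 (siNT grey, siYAP red). HES2 is lower and the adjacent ESPN rises from 54.7 to 188 on average, while ACOT7, TNFRSF25 and PLEKHG5 differ by under 0.1 on the log2 scale.

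The genes whose pattern was most like that of HES2 over the 6 libraries were sought among 12519 genes whose mean reached 50. The Pearson correlation of log2 values was 0.9998 for KCNJ14, a potassium channel gene, 0.9984 for VIPR1, a receptor for vasoactive intestinal peptide, and 0.9973 for VPS11, which serves in endosomal fusion. TNS2, a tensin, followed at 0.996 and CPNE7, a copine, at 0.9937. These correlations rest on 6 libraries in 2 groups and on the low reads of HES2. The likeness is one of shape, since their own log2 differences were small, -0.43, -0.48, -0.33, -0.46 and -0.58 in the order given. Of the other members, JAG1 had the highest correlation with HES2 (0.955), though 482 of the genes compared were above it.

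A wider list of 90 further Notch pathway genes, sorted by role, was examined in the same fit. Of the 75 that were measured, 28 rose, 26 fell and 21 were not called. With libraries scaled to equal totals these counts were 35 and 20, and the share of higher calls among all called genes went from 50.4% to 62.1%. The called share was 72.0% beside 56.8% of all genes. Where the mean reached 50 it was 72.1% of 68 pathway genes beside 67.7% of all such genes. Their median log2 fold change was 0.02 against 0.00 over all genes, and the median size was 0.29 against 0.30.

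**Figure D4:**
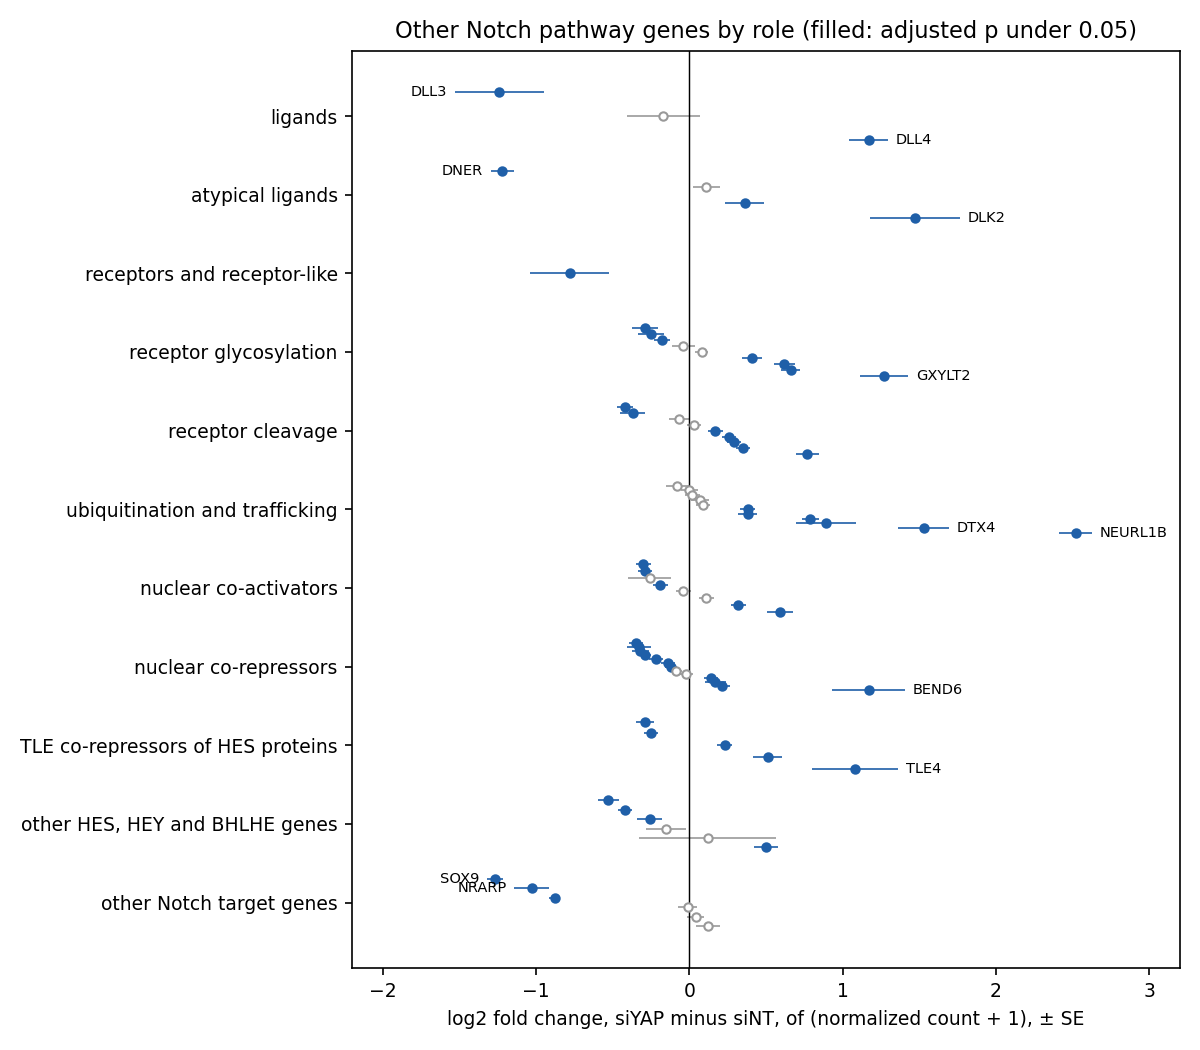
The log2 fold change (siYAP minus siNT, on normalized count + 1) with its standard error for the 75 measured pathway genes outside the main set, grouped by role; filled points passed an adjusted p under 0.05 and genes with a change of at least 1 are named. NEURL1B stands out at 2.52, and most roles hold called genes in both directions; 72.0% of the 75 genes were called, beside 56.8% of all genes.

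Among the Delta-like ligands, DLL4, known from sprouting blood vessels, rose. It had 73.3, 73.8 and 67.7 normalized counts in siNT and 159.5, 177 and 150.3 in siYAP (log2 1.17, standard error 0.126, limma adjusted p = 5.37e-08), so that it moved against JAG1. ESAM, the 1 measured marker of the 6 in the endothelial list, fell from 1774 ± 99.9 to 1296 ± 39.2 (SD, n = 3); the part of such cells in the DLL4 result was not tested. DLL3, an inhibitory ligand, had 28.3, 26.7 and 37.5 normalized counts in siNT and 18.1, 11.8 and 8.56 in siYAP and fell (log2 -1.24, limma adjusted p = 8.53e-04). DLL1 was as scarce and was not called (log2 -0.17, limma adjusted p = 0.574).

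Among atypical ligands 2 of 4 measured genes rose and 1 fell, a called share of 75.0% beside 56.8% of all genes. DNER, a Delta-like transmembrane protein of neurons, was at 672.5 ± 37.2 normalized counts in siNT and 287.5 ± 14.6 in siYAP (SD, n = 3). It fell by 1.22 on the log2 scale (limma adjusted p = 5.61e-12). DLK2, a scarce relative of the Delta ligands, rose (log2 1.47, limma adjusted p = 1.91e-04). MFAP2, a microfibril protein, rose slightly with overlapping groups (log2 0.36, limma adjusted p = 0.0195), a call lost without siNT replicate 3, siYAP replicate 1 or siYAP replicate 2. NOTCH4, the remaining receptor, was at 30.6 ± 2.03 and 17.8 ± 5.40 normalized counts (SD, n = 3) and fell (log2 -0.78, limma adjusted p = 0.0127), a call lost without siYAP replicate 2. It overlaps GPSM3, which differed by -2.36 on the log2 scale and may share its reads.

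Sugars added to the receptors tune their choice of ligand. Of 9 glycosylation genes, 4 rose and 3 fell, a called share of 77.8% beside 56.8% of all genes. The xylosyltransferase genes GXYLT2 (44.7 ± 7.0 to 109 ± 4.41 normalized counts, SD, n = 3; log2 1.27) and GXYLT1 (log2 0.66) and EOGT (log2 0.62), which adds N-acetylglucosamine, rose. Their limma adjusted p-values lay between 3.40e-09 and 4.25e-07. EOGT overlaps EOGT-DT on the other strand (log2 0.95). GXYLT2 overlaps FTH1P23 (log2 -0.55) and PPP4R2 (log2 0.07) on its own strand, and reads may be shared. POGLUT1, LFNG and MFNG fell (log2 -0.29, -0.25 and -0.18, limma adjusted p = 0.00497, 0.0167 and 0.00683). The cleavage genes were 9 as well, of which 5 rose and 2 fell, a called share of 77.8% beside 56.8% of all genes. APH1B, a gamma-secretase subunit, rose from 306 ± 16.7 to 523 ± 11.9 (SD, n = 3; log2 0.77, limma adjusted p = 1.11e-08). ADAM17, one of the proteases that shed receptors, fell by 0.42 on the log2 scale (limma adjusted p = 1.91e-07), and the presenilin gene PSEN2 fell by 0.37 (limma adjusted p = 4.52e-04). ADAM17 overlaps IAH1 (log2 0.41) and ENSG00000271855 (log2 -0.76) on the other strand and may share reads with them.

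The group of ubiquitin ligases and trafficking proteins held 6 genes that rose, none that fell and 5 that were not called, a called share of 54.5% beside 56.8% of all genes. NEURL1B, a ubiquitin ligase that drives endocytosis of Notch ligands, rose most of all measured pathway genes outside the main set. It had 70.2, 71.6 and 78.5 normalized counts in siNT and 465, 416 and 397 in siYAP, with the groups far apart (5.80-fold; log2 2.52, standard error 0.105, limma adjusted p = 1.09e-14). DTX4, a Deltex ligase, rose by 1.53 on the log2 scale and NEURL1, the relative of NEURL1B, by 0.89 (limma adjusted p = 6.22e-08 and 5.72e-04).

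In the nuclear machinery, which acts with RBPJ, the median size of the differences was 0.28 on the log2 scale for co-activators and 0.21 for co-repressors. Of 8 co-activator genes, 2 rose and 3 fell, a called share of 62.5% beside 56.8% of all genes. The acetyltransferase gene KAT2B (log2 0.59) and the Mastermind gene MAML3 (log2 0.32) rose and CREBBP (log2 -0.30) fell, with limma adjusted p-values from 2.96e-06 to 1.14e-05. Of 13 co-repressor genes, 4 rose and 7 fell, a called share of 84.6% beside the same 56.8%. Of the 11 called differences, 6 were under 0.25 on the log2 scale. CTBP2, L3MBTL3 and RITA1, which act with or on RBPJ, fell (log2 -0.35, -0.33 and -0.32). All 5 TLE genes were called, a share of 100.0% beside 56.8% of all genes. TLE2 (log2 0.51) was among 3 that rose, and TLE1 (log2 -0.29) and TLE3 (log2 -0.25) fell.

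Of 6 other measured HES, HEY and BHLHE genes, 1 rose, 3 fell and 2 were not called. Their called share was 66.7% beside 56.8% of all genes. HES6, which unlike its relatives is known to promote neuronal differentiation, fell. It had 746, 867 and 783 normalized counts in siNT and 566, 569 and 524 in siYAP (log2 -0.53, limma adjusted p = 8.73e-07). HES7, a gene of the segmentation clock, fell by 0.26 on the log2 scale (limma adjusted p = 0.00896). That call was lost without siNT replicate 3 and with equal totals. The related clock regulators BHLHE40 and BHLHE41 parted, BHLHE40 falling (log2 -0.42, limma adjusted p = 1.24e-07) and BHLHE41 rising (log2 0.50, limma adjusted p = 8.33e-06). On the other strand BHLHE41 overlaps SSPN (log2 0.77) and BHLHE40 overlaps BHLHE40-AS1 (log2 0.69), and reads may be shared. HEYL (log2 -0.15) and HEY2, at 5.64 ± 2.44 and 6.00 ± 1.12 normalized counts (SD, n = 3), were not called. HES3, HES5 and HELT, and the bHLH genes known to be held down by HES proteins, were not analysed here.

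Of 6 other known Notch targets, 3 fell, none rose and 3 were not called. This called share, 3 of 6, lay below the 56.8% of all genes, where 28.6% were called higher and 28.1% lower. NRARP, a feedback inhibitor that binds the NOTCH and RBPJ complex, had 214, 262 and 294 normalized counts in siNT and 123, 126 and 124 in siYAP. All siYAP libraries were below the control libraries by a wide margin (log2 -1.03, standard error 0.114, limma adjusted p = 9.15e-08). SOX9, a progenitor transcription factor, had 2926, 2970.5 and 3021 normalized counts in siNT and 1279, 1281 and 1149.9 in siYAP (log2 -1.27, limma adjusted p = 8.20e-15). CCND1, cyclin D1, fell from 28470 ± 576 to 15442 ± 108 (SD, n = 3; log2 -0.88, limma adjusted p = 1.40e-14). On the other strand SOX9 overlaps SOX9-AS1 (log2 -0.68) and CCND1 overlaps LTO1 (log2 -0.31), and reads may be shared. MYC (log2 0.12), CCND3 (log2 0.04) and CDKN1A (log2 -0.01) were not called, though MYC and CCND3 were called higher with equal totals (log2 0.21 and 0.13). The 3 heptamers of the 3′ UTR search were also looked for in 10 of these pathway genes, chosen after their values were seen. SOX9 and CCND1, which fell, each held 2 of them. HES6 and ADAM17, which fell, and NEURL1B, which rose, held 1 each. DLL3, DNER, BHLHE40 and NRARP, which fell, and DLL4, which rose, held none. At least 1 was present in 37.0% of 11396 searched genes, whose median 3′ UTR had 2518 bases against 690 in genes without. Whether these matches play a part in the differences was not tested.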

How the data were processed

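The authors deposited one signal value per gene and library. FastQC, HISAT2, HTSeq and DESeq2, with the builds hg19 and mm9, are named per the submitters' processing notes; the sources used here give no versions, roles, annotation or strand setting. In each library 100% of the deposited values were whole multiples of the smallest one within 0.01 of a read, so whole reads were recovered. The values, being normalized, went on the scale log2(value + 1) into limma 3.58.1 in R 4.3.3 (group as the only term, robust, with a variance trend), not into the edgeR test foreseen for raw counts. P-values were adjusted by Benjamini-Hochberg over 17200 genes and called under 0.05. As alternatives, edgeR 4.0.16 on the recovered reads tested 15659 genes and called 4916 up and 4655 down, and DESeq2 1.42.0 called 4393 and 4385.

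Symbols came from a table of names (16662 of 17211 identifiers) and GENCODE 29 (16743 with it), exon lengths and 3′ UTRs from GENCODE 29. The members and gene lists were chosen with earlier results of these data known. From each role up to 3 called genes whose mean reached 50, those of largest change, were named. DLL1, DLL3, NOTCH4, HES7, HEYL, HEY2, DLK2, POGLUT1, LFNG, MFNG, MYC, CCND3, CDKN1A and ESPNP lie outside that rule. They were chosen after their values were seen. Of 42 genes examined for overlap beside the members, 15 overlap another listed gene, most on the other strand, and may share reads. These 42 include the neighbours of HES2 but not DLK2, POGLUT1, LFNG, MFNG or ESPNP. Libraries of one group correlated at 0.992 to 0.994 and were not duplicates (chi-square over its degrees of freedom 2.64 to 7.10). In simulated counts for siYAP against siNT, limma found 42 of 50 genes set to change 1.5-fold, 50 of 50 set to change 2-fold and 6 unchanged genes among 17139 genes tested. Few genes were set to change there, evenly up and down, whereas 56.8% of genes were called in the real libraries. The simulation therefore does not measure the false calls among those.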

Additional observations from a re-analysis of the deposited data

How the results depend on the processing

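HES2 ran from -4.39 (without siYAP replicate 2) to -3.49 (without siYAP replicate 1) on the log2 scale when single libraries were left out, and was between -4.18 and -3.72 under the other settings, so its direction held in all 16 alternatives. The counts of other pathway genes stayed within 1.5 times, at 23 to 35 higher and 20 to 26 lower. Their median moved to 0.11 with equal totals, which shift the median of all genes to 0.09, and lay between 0.00 and 0.03 with single libraries left out. Of the members, JAG1 was at -0.60, HEY1 at -0.55, NOTCH1 at -0.48 and NOTCH3 at -0.42 with equal totals. JAG2 was then at -0.27, HES4 at -0.18 and RBPJ at 0.17. The calls lost for MFAP2, NOTCH4 and HES7 are given above, and that of MFAP2 was lost also without the variance trend and that of NOTCH4 also with DESeq2. Calls of DLK2, POGLUT1, LFNG, MFNG and the cell type markers were not followed under these settings, so whether they hold is not known. Small differences that were not called changed sign: CDKN1A was at 0.08 with equal totals, 0.01 with upper-quartile factors and with edgeR, and 0.03 without siNT replicate 3 or siYAP replicate 2; ACOT7 was at 0.03 and TNFRSF25 at 0.05 with equal totals; HEY2 was at -0.03 and -0.01 without siNT replicates 1 and 2. With single libraries left out, HEY2 ranged from -0.03 to 0.41 and CDKN1A from -0.05 to 0.03. The low reads of HES2 in siYAP limit the precision of its fold change.

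Deviations from the group means correlated at -0.338, -0.008 and -0.069 between same-numbered libraries of the groups, over 12519 genes. Between differently numbered libraries they correlated at -0.269 to 0.317. Deviations of 3 libraries from their own mean are tied to each other. Whether the replicate numbers pair the libraries therefore cannot be decided from these values. With the replicate block, 4654 genes were higher and 4487 lower, 26 and 25 among the other pathway genes, and HES2 was at -3.80.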
